A study of Mus musculus with 3 samples.

Results

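The genes described here encode the SR proteins, the hnRNPs and the subunits of splicing factor 3 (SF3), read in cultured mouse cortical neurons. Members were taken by name alone: protein-coding genes of the table whose GENCODE mouse symbol starts with Srsf and a digit, Hnrnp, Sf3a or Sf3b. This gave 40 of 18109 protein-coding genes, of which 11 are Srsf, 20 Hnrnp, 3 Sf3a and 6 Sf3b genes. The data are 3 poly-A RNA-seq libraries of a single group, wild-type (WT) neurons with no treatment, labelled Control and numbered 1 to 3. Neurons came from Swiss-Webster mice, an outbred stock, at embryonic day 16, and grew on poly-D-lysine in neurobasal medium with B27, at 5 M cells to each 10 cm plate. The shared protocol also describes etoposide, a drug that traps type II topoisomerases, but none is given for these libraries by their labels. The series belongs to a study of where the topoisomerase TOP2B acts in the neuronal genome. With 1 group there is no condition to compare, so genes are compared within the same libraries.

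SR proteins carry RNA recognition motifs and a tail rich in arginine and serine, and as a rule they bind exons and draw the splicing machinery to nearby splice sites. hnRNPs coat nascent transcripts and often repress exons or splice sites, and several of them also act in mRNA export, transport, stability and translation. SF3A and SF3B are parts of the U2 small nuclear ribonucleoprotein, which recognises the branch site of each intron. Many SR protein and hnRNP genes limit their own output by splicing in an exon, or keeping an intron, that sends the transcript to decay. In neurons these factors are also known for shaping alternative exons and for carrying mRNA into neurites.

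Levels are TPM, a share of reads scaled to transcript length, of the row of each gene's longest protein-coding transcript, shown as the mean over libraries ± SD (n = 3). Transcript rows of a gene share reads, so a level is that of a model and not a sum over the gene. Reads recovered from the TPM values, summed over the row with most reads of each gene, came to 26.7 M, 23.6 M and 23.2 M in libraries 1, 2 and 3. A read over overlapping genes may count for each of them, so these sums only approximate the depth. On a transcript of 2 kb, 1 TPM stood for 103, 86.5 and 91.4 reads. All 8 neuronal markers checked were at 10 TPM or more, from Rbfox3 at 22.6 to Stmn2 at 687 TPM, and their summed level was 2178, 2268 and 1981 TPM in libraries 1, 2 and 3. Markers of astrocytes were present too: 8 of 8 reached 1 TPM, and they summed to 425, 452 and 517 TPM. Markers of proliferating cells summed to between 18.1 and 23.6 TPM, with 6 of 8 at 1 TPM or more, and those of the oligodendrocyte lineage to between 49.7 and 83.0 TPM, with 6 of 7 at 1 TPM or more. Microglial markers summed to at most 2.26 TPM with Tmem119 listed at 0, endothelial markers to at most 0.805 TPM with Cldn5 listed at 0, and fibroblast markers to at most 3.95 TPM. In bulk RNA, fewer cells of a type and less RNA per cell cannot be told apart, so the levels below belong to the whole culture.

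All 40 genes were at 1 TPM or more, against 61.5% of all protein-coding genes. At 10 TPM or more there were 33 of the 40, against 26.4% of all protein-coding genes. A single member, Hnrnpa2b1, reached 100 TPM, a level passed by 1.57% of all protein-coding genes. The median of log2(mean TPM + 1) was 4.76 for the 40 genes, with an SD of 0.04 between library medians, and 1.94 for all protein-coding genes. By family it was 4.89 for Srsf, 4.95 for Hnrnp, 3.90 for Sf3a and 4.60 for Sf3b genes. The genes are 0.221% of the protein-coding genes and held 0.532%, 0.551% and 0.574% of the summed TPM of all longest coding rows in libraries 1, 2 and 3. The highest longest coding row of any gene in the culture was at 2574 TPM.

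**Figure D1:**
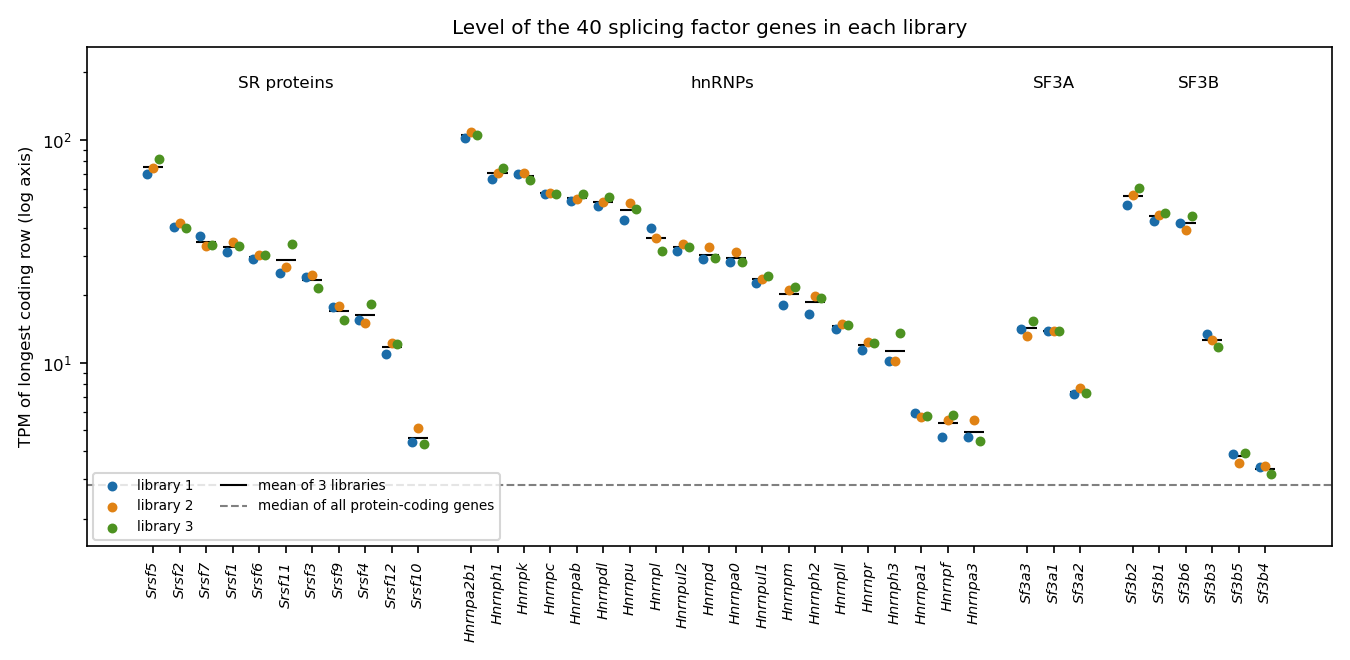
TPM of the longest coding row (log axis) of each of the 40 genes in libraries 1, 2 and 3 (points), with the mean (short line), ordered by mean within SR proteins, hnRNPs, SF3A and SF3B, and the median of all protein-coding genes (dashed line, 2.84 TPM). The 40 means lie between 3.34 TPM for Sf3b4 and 105 TPM for Hnrnpa2b1, all above that median.

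Among the SR proteins, Srsf5 had the highest longest coding row. This factor, also called SRp40, had 70.4, 74.3 and 81.5 TPM in libraries 1, 2 and 3 and made up 23.8% ± 1.10 of the summed level of the 11 Srsf genes. With the highest row of each gene the first place changed, to Srsf1 at 143 TPM, with Srsf5 at 109 and Srsf2 at 99.7 TPM, and the Srsf5 share was 18.2%. With the sum of rows, which counts shared reads repeatedly, the Srsf5 share was 34.4%. On the longest coding rows Srsf2, the speckle protein SC35, followed Srsf5 with 40.7, 42.3 and 40.1 TPM. No library of Srsf2 came near the lowest library of Srsf5. Srsf7, an SR protein with a zinc knuckle that takes part in mRNA export, had 37.1, 33.5 and 33.8 TPM. Srsf1, the prototype of the family, which promotes exon inclusion and shuttles to the cytoplasm, had 31.3, 34.6 and 33.4 TPM. Ranges of Srsf7 and Srsf1 overlapped, so their order is not fixed by these libraries. Srsf6 (SRp55) had 29.0, 30.3 and 30.3 TPM, and Srsf11, a factor known for promoting neuronal microexons, had 25.3, 26.9 and 34.0 TPM. Srsf11 was thus below Srsf6 in libraries 1 and 2 and above it in library 3.

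The remaining 5 SR protein genes were lower. Srsf3, the smallest SR protein and an adaptor for mRNA export, averaged 23.5 ± 1.68 TPM. Srsf9, a relative of Srsf1, averaged 17.1 ± 1.33 TPM, and Srsf4 (SRp75) averaged 16.3 ± 1.79 TPM. Those last genes overlapped, with 17.7, 18.0 and 15.5 TPM for Srsf9 and 15.5, 15 and 18.3 TPM for Srsf4. On the longest coding rows, the bottom of the family was held by the pair of atypical members that can act against other SR proteins. Srsf12 had 10.9, 12.2 and 12.1 TPM, and Srsf10, which represses splicing when it is dephosphorylated, had 4.43, 5.07 and 4.33 TPM. Srsf10 was the lowest Srsf gene in every library on these rows. With the highest rows it was again lowest, at 9.45 TPM, with Srsf12 at 11.7 TPM. With the sum of rows, Srsf10 at 58.6 TPM was above Srsf12 at 21, Srsf7 at 34.8 and Srsf4 at 47.4 TPM.

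The A/B group of hnRNPs was uneven. Hnrnpa2b1, which binds mRNAs that travel into neurites and glial processes, had 102, 108 and 105 TPM in libraries 1, 2 and 3, the highest of all 40 genes on the longest coding rows. With the highest rows it was also first, at 191 TPM, and with the sum of rows it was at 483 TPM, below Hnrnph1 at 1371. Hnrnpa0, encoded by a single exon and known for binding AU-rich elements, had 28.4, 31.2 and 28.4 TPM. Hnrnpa1, the classic antagonist of SR proteins at splice sites, had 5.94, 5.69 and 5.78 TPM, and its relative Hnrnpa3 had 4.64, 5.52 and 4.47 TPM. Hnrnpa1 and Hnrnpa3 therefore lay far below Hnrnpa2b1 and Hnrnpa0 in each library. Both also share much of their sequence with pseudogenes, and how reads that map to several places were treated is not given in the sources used here.

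Sequence sharing was measured as the percentage of 50-base words of the M21 model of a row that occur at no other annotated locus. In 9 of the 40 genes that model reaches beyond the ends of the deposited row, most of all in Hnrnpr and Hnrnpd. Within the deposited ends the percentage was 92.4% for Hnrnpr, against 96.4% of its whole model, and 100% for Hnrnpd, against 99.2%, and no gene changed its side of 90%. At least 90% of words were unshared in 30 of the 40 genes, against 91.1% of all protein-coding genes. For Hnrnpa1 the figure was 53.6%, with words shared with 19 other loci, 18 of them holding a pseudogene. For Hnrnpa3 it was 71.8%, with 43 other loci, 40 of them holding a pseudogene, and a single word occurred at up to 22 of them. It was 97.6% for Hnrnpa2b1 and 100% for Hnrnpa0. A 60-base coding stretch of Hnrnpa3 is shown beside Hnrnpa2b1 and Hnrnpa0. It was chosen as the stretch within 1 exon whose words occur at the most other loci on average. Its sharing in Hnrnpa3 was thus set by the choice and does not stand for the whole gene. The stretches of Hnrnpa2b1 and Hnrnpa0 are their coding stretches with the most bases identical to it. Capitals mark bases that differ from Hnrnpa3. Sequences are those of the GENCODE M21 transcripts on GRCm38, given along the transcript, and lie within 1 exon at chr2:75662498-75662557 (plus strand), chr6:51466334-51466393 (minus strand) and chr13:58127774-58127833 (minus strand).
Hnrnpa3: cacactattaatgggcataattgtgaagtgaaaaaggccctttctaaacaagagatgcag
Hnrnpa2b1: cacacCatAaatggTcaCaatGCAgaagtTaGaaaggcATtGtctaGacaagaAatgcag
Hnrnpa0: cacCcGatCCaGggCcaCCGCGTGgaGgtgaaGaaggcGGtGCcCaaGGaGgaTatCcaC
Of the 60 bases, 46 in Hnrnpa2b1 and 34 in Hnrnpa0 were identical to Hnrnpa3. All 11 words of the stretch were shared with another locus in Hnrnpa3, at up to 22 loci. None of the 11 was shared in Hnrnpa2b1 or in Hnrnpa0. These 3 paralogs thus share no 50-base word in this stretch, and the shared words of Hnrnpa3 lie at other loci.

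Over the 40 genes, low levels and shared sequence went together in part. Of the 7 genes under 10 TPM, 5 had under 90% unshared words: Hnrnpf (48.1%), Sf3b4 (50.7%), Hnrnpa1, Hnrnpa3 and Srsf10, the last just below at 89.96%. Of the 33 genes at 10 TPM or more, 5 did: Hnrnpk (65.5%), Srsf3 (68.5%), Srsf5 (72.2%), Hnrnph2 (81.8%) and Hnrnpc (87.7%). Hnrnpk and Srsf5 were among the 4 highest genes in spite of shared words. The part of shared sequence in any level was not tested.

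**Figure D2:**
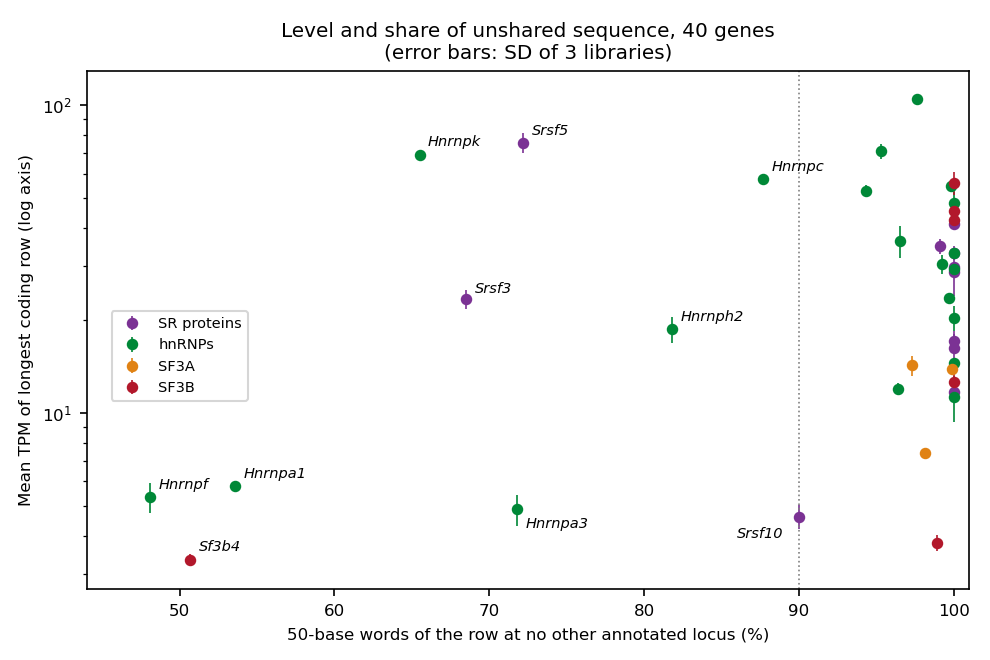
Mean TPM of the longest coding row (log axis, error bars SD of 3 libraries) against the percentage of its 50-base words found at no other annotated locus, for the 40 genes coloured by family, with the 90% line dotted and the 10 genes below it named. Hnrnpf, Sf3b4, Hnrnpa1 and Hnrnpa3 lie low and to the left, whereas Hnrnpk and Srsf5, at 65.5% and 72.2%, lie at 69.0 and 75.4 TPM.

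Hnrnpa3 allowed the shared and unshared bases to be read apart, because its row Hnrnpa3-207 lies wholly within the row Hnrnpa3-203. The 4076 bases found in Hnrnpa3-203 alone, of which 4010 are a single stretch at the downstream end (chr2:75665398-75669407), had 91.5% of their words unshared, and the 1074 bases of Hnrnpa3-207 had 0%. Reads that fell only in the extra bases numbered 1137, 1157 and 978 in libraries 1, 2 and 3, against 88, 71 and 73 in the contained bases. Per base, the unshared end was at 374% ± 48.1 of the density of the contained row. The level of 4.87 TPM for Hnrnpa3 is thus an average of an end with more counted reads per base and a contained part with fewer. With 4076 of the 5150 bases of Hnrnpa3-203 in the extra part, that level rests mostly on the denser bases. The 2 parts also differ in their place along the transcript, so shared sequence and place cannot be told apart here. In Hnrnpf, the 1176 extra bases of Hnrnpf-209 were at 116% ± 16.5 of the density of Hnrnpf-204, with 59.4% of words unshared in the extra bases and 21.7% in the contained ones.

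The D group of hnRNPs binds AU-rich elements. Hnrnpab had 52.9, 54.1 and 57.2 TPM, and Hnrnpdl had 50.5, 52.3 and 55.3 TPM. Hnrnpd, also called AUF1, a factor in mRNA decay, had 29.0, 32.9 and 29.4 TPM. Hnrnpab was above Hnrnpdl in each library, but their ranges overlapped. Hnrnpc, which binds uridine tracts and competes with U2AF2 at cryptic splice sites, was among the least variable genes, with 57.1, 57.9 and 57.1 TPM.

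The F/H group binds runs of guanines. Hnrnph1 had 66.7, 70.8 and 74.7 TPM, and Hnrnph2, encoded on the X chromosome, had 16.6, 19.9 and 19.5 TPM. Hnrnph3 had 10.2, 10.2 and 13.6 TPM, and Hnrnpf had 4.66, 5.54 and 5.83 TPM. The 4 genes did not overlap, so Hnrnph1, Hnrnph2, Hnrnph3 and Hnrnpf kept that order in all 3 libraries. With the highest rows Hnrnpf and Hnrnph3 were at 15.1 and 14.8 TPM, so their order turned. Hnrnph3 had the highest coefficient of variation of the 40 genes, 17.1%, with library 3 above both others.

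Other hnRNPs spanned a wide range. Hnrnpk, a KH-domain protein that binds cytosine-rich RNA, had 70.3, 70.8 and 66.0 TPM. Hnrnpu, or SAF-A, which ties chromatin to nuclear RNA, had 43.5, 51.9 and 48.8 TPM. Its relatives Hnrnpul2, with 31.7, 34.2 and 33.1 TPM, and Hnrnpul1, with 22.7, 23.6 and 24.5 TPM, are known for a role at broken DNA ends. The 3 genes did not overlap. Hnrnpl, which binds CA repeats, had 40.3, 36.2 and 31.8 TPM, and its paralog Hnrnpll had 14.2, 14.9 and 14.7 TPM. Hnrnpl was highest in library 1, as were 4 of the 40 genes, and lowest in library 3. Hnrnpm, a binder of GU-rich RNA, averaged 20.4 ± 1.93 TPM, and Hnrnpr, a relative of Syncrip, averaged 12 ± 0.531 TPM.

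The SF3 subunits sit in a shared particle but had unequal mRNA levels. Of the SF3B genes, Sf3b2 had 51.1, 56.2 and 60.6 TPM in libraries 1, 2 and 3, and Sf3b1, which encodes the large HEAT-repeat protein that clamps the branch site, had 43.1, 45.7 and 47.1 TPM. Sf3b6, whose small protein contacts the branch adenosine region, had 42.2, 39.2 and 45.4 TPM. On these rows Sf3b2 lay above both others, and Sf3b1 and Sf3b6 overlapped. The order of Sf3b2 and Sf3b1 turned with the highest rows, at 55.9 TPM for Sf3b2 and 63.7 TPM for Sf3b1, and with the sum of rows, at 55.9 and 295 TPM. Sf3b3, a large beta-propeller scaffold, had 13.5, 12.6 and 11.8 TPM. Sf3b5 had 3.91, 3.55 and 3.95 TPM on a row of 3841 bases with a single exon, of which 258 bases are coding. Sf3b4, which contacts RNA upstream of the branch site, had 3.39, 3.44 and 3.18 TPM, the lowest of the 40 genes, with 50.7% of its words unshared. Sf3b2 alone gave 34.2% ± 1.5 of the summed SF3B level, and Sf3b4 gave 2.05% ± 0.176. The Sf3b2 share was 30.8% with the highest rows and 13.5% with the sum of rows.

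The 3 SF3A genes were closer to each other. Sf3a3 had 14.1, 13.2 and 15.4 TPM, Sf3a1 had 13.9, 13.9 and 13.9 TPM, and Sf3a2 had 7.22, 7.69 and 7.32 TPM. Sf3a1 had the smallest coefficient of variation of all members, 0.245%. On these rows Sf3a3 and Sf3a1 could not be ordered, and Sf3a2 was below both in every library. With the highest rows Sf3a3, Sf3a1 and Sf3a2 were at 14.3, 26.9 and 16.5 TPM, and with the sum of rows at 29.5, 61.6 and 47.4 TPM. Sf3a1 was then the highest of them and Sf3a3 the lowest.

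The row that stands for a gene changed many levels. In 17 of the 40 genes the highest row was at least 1.5 times the longest coding row, against 20% of the 11141 protein-coding genes at 1 TPM or more. These were 6 Srsf, 9 Hnrnp and 2 Sf3a genes, and no Sf3b gene. In 17 of the 40 genes, not all of them the same, the highest row was of a non-coding type, meaning a processed transcript, a retained intron or a transcript marked for nonsense-mediated decay, against 26.1% of the 11141 genes. In 15 it was the longest coding row itself, as in 40.6% of the 11141. A gene with 1 row can have no higher row, and 7 of the 40 genes have 1 row, among them Sf3b2, Sf3b3, Sf3b5 and Sf3b6. The median number of rows was 4.5 for the 40 genes and 3 for all protein-coding genes. By family it was 5 for Srsf, 7 for Hnrnp, 4 for Sf3a and 1 for Sf3b genes. The part of row number in these counts was not tested. The widest gap was in Srsf1, where the 401-base decay model Srsf1-207 had 125, 144 and 160 TPM and the longest coding row had 31.3, 34.6 and 33.4 TPM. In Hnrnpr, the 473-base retained-intron model Hnrnpr-208 had 42.3, 47.9 and 52.3 TPM, against 11.4, 12.4 and 12.3 TPM for the longest coding row. In Hnrnpk, 21 rows ran from 3.67 TPM for Hnrnpk-207 to 134 TPM for Hnrnpk-215. Short models that lie over well-covered exons take the reads of those exons, so a high row of decay or retained-intron type does not by itself show that such a transcript was made.

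**Figure D3:**
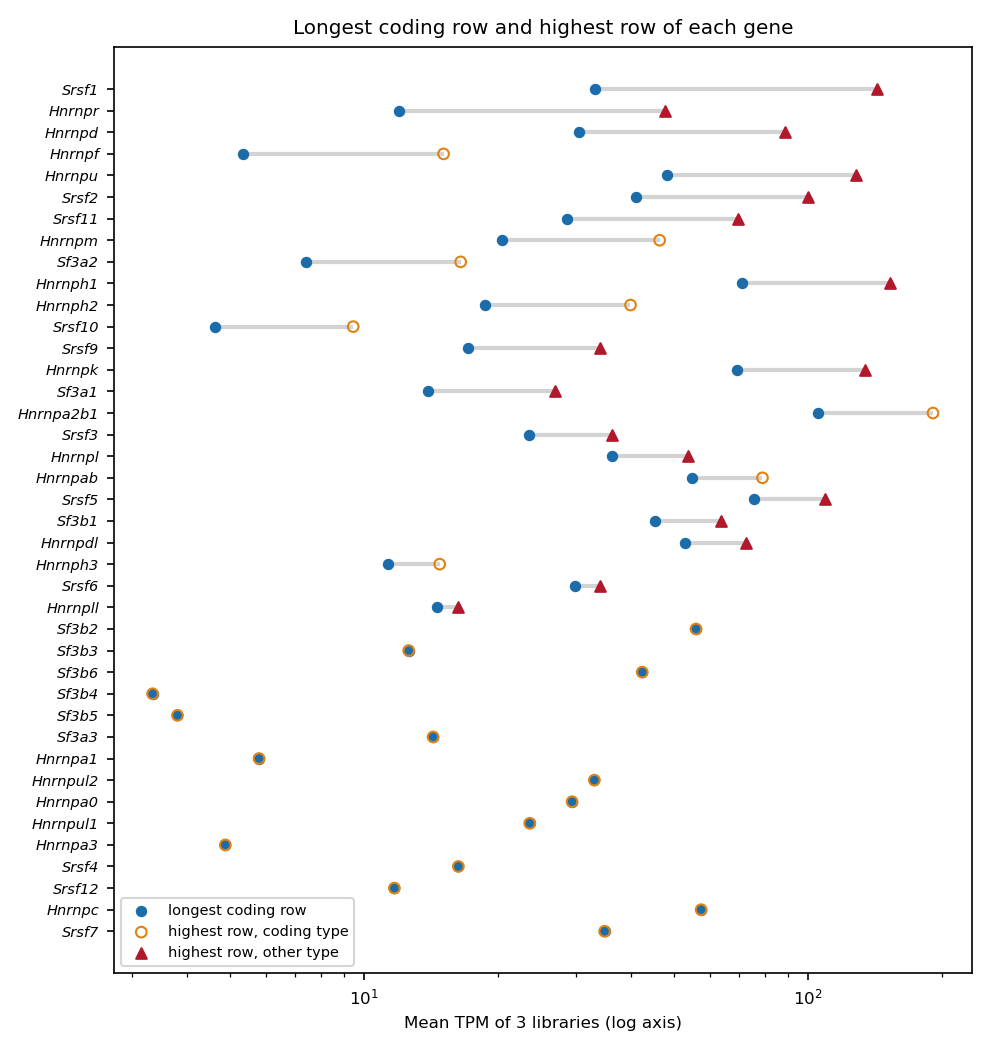
Mean TPM of 3 libraries (log axis) of the longest coding row (filled circle) and of the highest row (open circle for coding type, triangle for other types) of each gene, ordered by their ratio with the widest at the top. Srsf1 has the widest gap, 143 against 33.1 TPM, and in the bottom 15 genes both symbols coincide.

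Paralogs and partners were compared as 25 pairs, taking the difference of log2(TPM + 1), first gene minus second, within each library. In 24 pairs the sign was the same in all 3 libraries. With 3 libraries, the smallest p of a two-sided exact permutation test that flips signs is 0.25. Those 24 pairs all had an exact p = 0.25, or 0.26 after Benjamini-Hochberg adjustment over the 25, so none could pass a threshold of 0.05. With 3 equal signs p is 0.25 whatever the size of the difference or its SD, so it does not measure the spread. The labels do not state separate cultures for the libraries, so p and SD speak only of these samples, and their spread may be technical. The largest differences were Hnrnpa2b1 over Hnrnpa3 at 4.18 ± 0.10 and over Hnrnpa1 at 3.96 ± 0.07, Sf3b2 over Sf3b4 at 3.71 ± 0.16, and Hnrnph1 over Hnrnpf at 3.50 ± 0.07. In each of these the second gene has shared sequence, as given above. Where both genes had at least 90% unshared words there were 14 pairs, and 13 of them kept 1 sign in all libraries.

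Some of those 14 pairs were stable in sign when the highest row was used. Srsf1 was above Srsf9 by 0.92 ± 0.14, and by 2.03 with the highest rows. Hnrnph1 was above Hnrnph3 by 2.55 ± 0.16, and by 3.30 with the highest rows. Hnrnpl was above Hnrnpll by 1.25 ± 0.19, Hnrnpu above Hnrnpul1 by 0.99 ± 0.10, and Sf3b1 above Sf3b3 by 1.77 ± 0.15, and these were 1.63, 2.39 and 2.25 with the highest rows. Srsf4 was below Srsf6, with a difference of -0.84 ± 0.14, and of -1.02 with the highest rows. Others turned: 6 of the 14, and 7 of the 25, changed sign with the highest rows. Srsf2 was above Srsf1 by 0.30 ± 0.06 on the longest coding rows, and the difference was -0.51 on the highest rows. Hnrnpr minus Syncrip was -0.61 ± 0.08 on the longest coding rows and 0.51 on the highest. For Sf3a1 minus Sf3a3 the difference was -0.03 ± 0.11, with p = 0.75 by the same exact permutation test, and the sign differed between libraries.

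**Figure D4:**
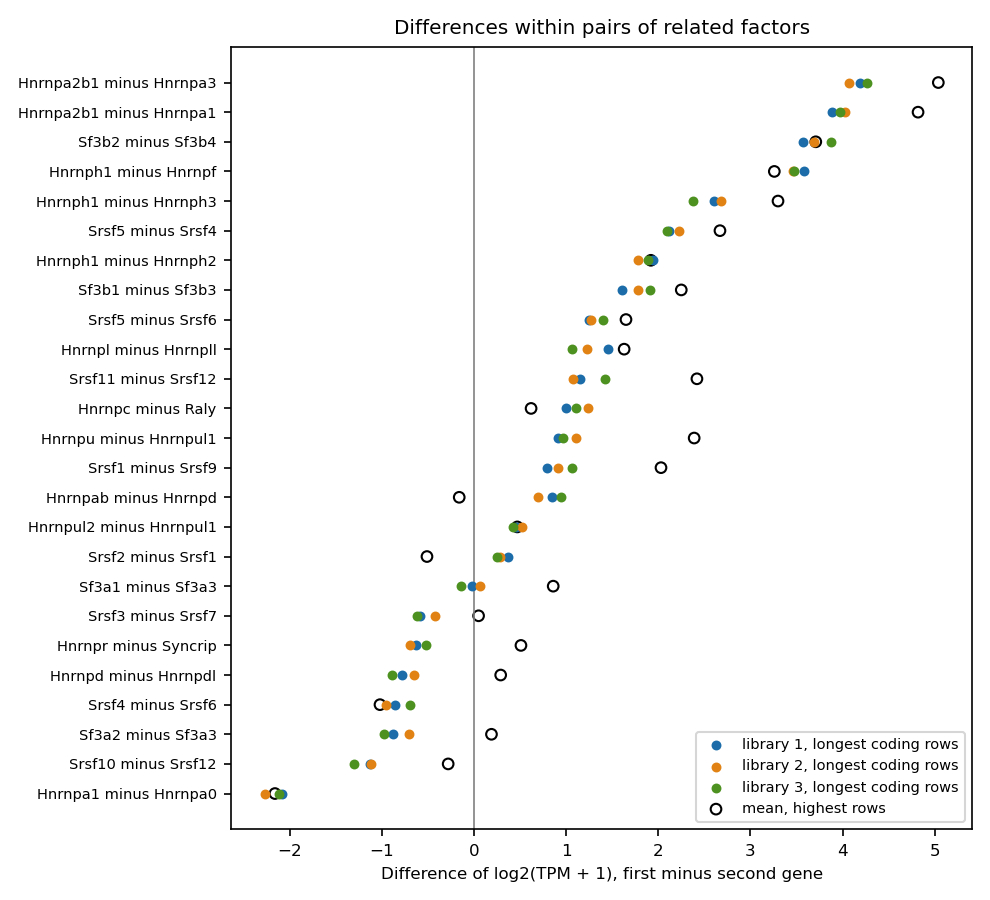
Difference of log2(TPM + 1), first gene minus second, for 25 pairs of related factors in libraries 1, 2 and 3 (filled points, longest coding rows) and the mean with the highest rows (open circles), with a line at 0. Filled points lie on 1 side of 0 in 24 pairs, all but Sf3a1 minus Sf3a3, and 7 open circles lie across the line from their filled points.

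Reads over annotated introns and other extra bases were taken from nested rows. Intron reads can come from kept introns, from RNA not yet spliced, or from other models with exons there. These sources were not told apart. Where every exonic base of a coding row lies within another row of the gene, the difference in reads belongs to the extra bases of the larger row. In 8030 such pairs over all protein-coding genes, 0 had fewer reads in the containing row in any library. Among the 40 genes, 24 pairs in 14 genes had at least 200 extra bases. Reads that also touch shared exons are in both rows, so short extra segments can be missed. Of 8 pairs with fewer extra bases, 3 gave 0 extra reads in every library, with 66 bases in Hnrnpa3, 45 in Hnrnph3 and 3 in Srsf10. In the other 5 the extra reads ran from 2, 1 and 0 for the 10 bases of Srsf2-202 to 76, 48 and 52 for the 134 bases of Srsf9-203. The rows Srsf5-201 and Srsf5-202, with 36 and 7 extra bases over Srsf5-203, each had 20, 19 and 42.

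In 2 of these genes, Srsf5 and Hnrnph1, at least 90% of the extra bases of a pair were whole introns, and Srsf5 had the denser intron reads. Its row Srsf5-212, a retained-intron model, contains the coding row Srsf5-203 and the whole intron of 1229 bases at chr12:80947866-80949094. Reads that fell in the intron alone numbered 1749, 1421 and 1360 in libraries 1, 2 and 3, beside 5540, 4926 and 5663 reads in the coding row. Per base the intron was at 38.3%, 35.0% and 29.1% of the coding row, a mean of 34.1% ± 4.64. All words of the intron were unshared, against 70.7% of those of Srsf5-203, and the part of this gap in the relative density was not tested. A second model, Srsf5-207, which holds the same intron and a shorter one, was at 29.2% ± 4.01. In Hnrnph1, the row Hnrnph1-205 adds introns of 1494 and 939 bases, at chr11:50379965-50381458 and chr11:50381598-50382536, and 18 bases at its start. Its extra bases held 1038, 879 and 984 reads and were at 10.5% ± 0.332 of the density of Hnrnph1-202. Over all 97 protein-coding genes with such a pair, at least 90% of the extra bases being whole introns and at least 100 reads in the coding row, the median was 10.7%, with quartiles of 2.85% and 29.2%. Each of the 97 genes counts once, by its pair with the most extra bases. They include Srsf5, by its row Srsf5-207, and Hnrnph1. Srsf5-207 was above 74.2% of these genes and the Hnrnph1 introns above 48.5%. The denser Srsf5-212, not the pair that counts for its gene, was above 78.4%.

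The ends of these introns are shown because the intron reads of Srsf5 and Hnrnph1 are counted between them. Each line holds 40 bases of the plus strand of GRCm38 as in the M21 transcripts, with 15 bases of exon and 25 of intron, and capitals mark the first and last pair of intron bases.
Srsf5 intron start: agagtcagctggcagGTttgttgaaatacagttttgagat
Srsf5 intron end: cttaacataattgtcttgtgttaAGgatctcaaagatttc
Hnrnph1 first intron start: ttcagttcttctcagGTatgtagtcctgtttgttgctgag
Hnrnph1 first intron end: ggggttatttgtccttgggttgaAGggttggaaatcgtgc
Hnrnph1 second intron start: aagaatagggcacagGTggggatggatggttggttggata
Hnrnph1 second intron end: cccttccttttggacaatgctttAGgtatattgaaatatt
All 3 introns begin with GT and end with AG, the usual splice site bases. The GC content was 36.3% in the Srsf5 intron and 30.1% and 33.5% in the Hnrnph1 introns.

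Other nested rows reported on longer ends and mixed segments. In Hnrnpr, the 688 extra bases of Hnrnpr-205 were at 139% ± 19.3 of the density of the 292-base coding row Hnrnpr-209, with 75.8% of words unshared in the extra bases and 100% in the contained ones. In Srsf1, the 1739 extra bases of Srsf1-201 over Srsf1-202, which include 2 whole introns, were at 77.1% ± 5.53 of the density of the contained row. Also in Srsf1, the 4153 extra bases of Srsf1-205 over Srsf1-202, of which 3345 are a single stretch, were at 46.9% ± 4.30 of the density of the contained row. In Srsf10, the 1529 extra bases of Srsf10-205 over Srsf10-203 were at 87.1% ± 12.9. In Srsf6, the 1151 extra bases of the decay model Srsf6-201 were at 204% ± 12.2 of the density of the 515-base coding row Srsf6-202, and the 2382 extra bases of the retained-intron model Srsf6-204 at 132% ± 6.08. Of the extra bases of Srsf6-201, all but a 103-base longer exon lie beyond the ends of the short coding row, and those of Srsf6-204 include 2 whole introns, of 672 and 446 bases. In Hnrnpd, the 463 extra bases of Hnrnpd-201 over Hnrnpd-202 were at 27.6% ± 3.45. The start of the Hnrnpl model that stands for the gene was almost unread: the 537 extra bases of Hnrnpl-211 over Hnrnpl-201, in 2 stretches upstream of it, held 23, 12 and 20 reads, or 1.62% ± 0.460. In Hnrnph2, the 2287 extra bases of Hnrnph2-204, of which 1892 are an intron of Hnrnph2-201, were at 7.36% ± 0.725. The longest coding row thus counts bases that are thinly read in Hnrnph2, whose contained row Hnrnph2-201 was at 39.8 TPM against 18.7 TPM for the longest row.

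**Figure D5:**
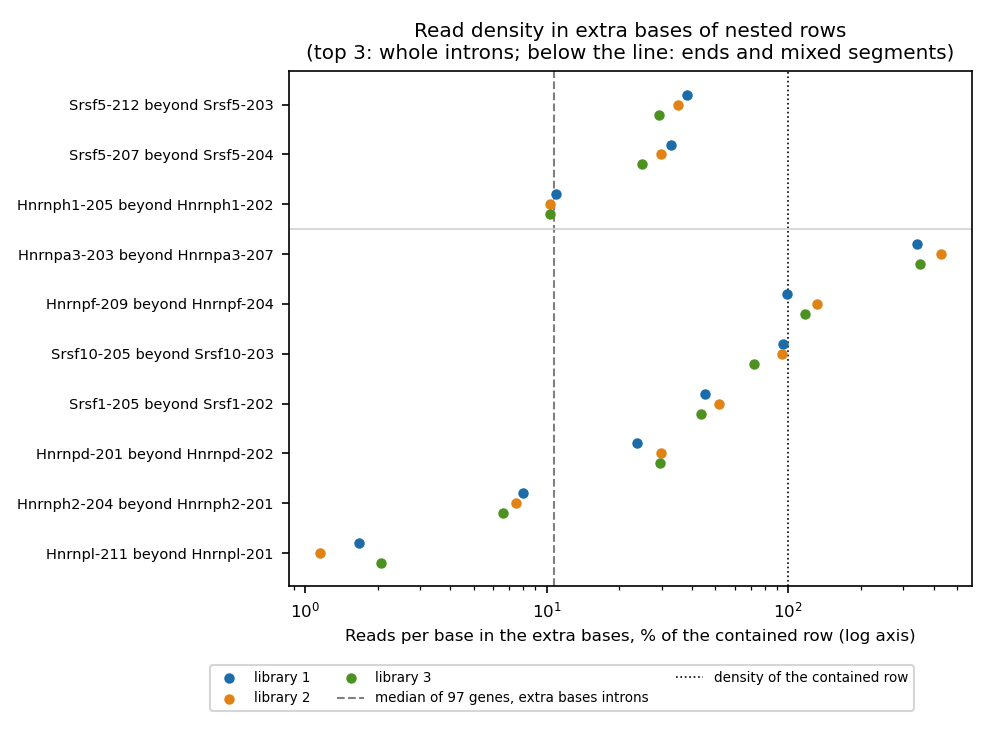
Reads per base in the extra bases of a containing row, as percent of the density of the contained coding row (log axis), in libraries 1, 2 and 3, for 10 of the 24 nested pairs, with the median of 97 genes whose extra bases are introns (dashed, 10.7%) and equal density (dotted, 100%). The Srsf5 intron lies right of the dashed line in every library, the Hnrnph1 introns lie on it, and the end of Hnrnpa3-203 lies beyond equal density.

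The genes were compact. Their median genomic span was 11.4 kb, against 21.2 kb for all protein-coding genes, and by family it was 7.22 kb for Srsf, 13.0 kb for Hnrnp, 17.7 kb for Sf3a and 15.8 kb for Sf3b genes. None spanned more than 50 kb, as 26.3% of all protein-coding genes did. The longest was Hnrnpr at 47.1 kb and the shortest Hnrnpa0 at 2.68 kb. The number of exons was not low, with a median of 9 against 8. The genes lay on 17 chromosomes, with 5 each on chromosomes 4 and 11.

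The libraries differed little for these genes. The median coefficient of variation was 5.78%, against 7.88% for protein-coding genes at 1 TPM or more, and 11 of the 40 genes were above 7.88%. This comparison is not matched for level: the median of log2(mean TPM + 1) was 4.76 for the 40 genes and 3.18 for the others compared. Library 1 held the lowest value of 22 of the 40 genes, and of 3746 of the 11141 protein-coding genes at 1 TPM or more. Libraries 2 and 3 held the lowest value of 7 and 11 of the 40, and of 2848 and 4547 of the 11141. The highest value was in library 1 for 4, in library 2 for 20 and in library 3 for 16 of the 40. Over the 11141 genes these counts were 3139, 4493 and 3509. After Hnrnph3, the widest spread was in Srsf11, with a coefficient of variation of 16.1% and library 3 highest. Its highest row, the retained-intron model Srsf11-211, had 51.2, 59.5 and 97.6 TPM in libraries 1, 2 and 3, so that both rows were highest in library 3. Library 3 also had the lowest summed neuronal markers and the highest summed astrocyte markers of the 3, and their part in these spreads was not tested.

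The rest of the splicing pathway was also widely expressed. Beside the 40 and 33 of 40 members at 1 and 10 TPM or more, 11 lists of other factors held 137 genes, with 136 at 1 TPM or more and 94 at 10 TPM or more. The median of log2(mean TPM + 1) was 4.76 for the members and 3.89 for these genes. The gene below 1 TPM was Srpk3, a kinase of SR proteins best known from muscle, at 0.0947 ± 0.046 TPM. The other genes of its list, which holds kinases and nuclear importers, ran from Tnpo1 at 10.1 TPM to Tnpo2 at 31.3 TPM. Among the lists, medians were highest for the Sm core proteins at 4.55, hnRNP-related proteins under other symbols at 4.33, and U2 and branch site partners at 4.30. They were lowest for minor spliceosome proteins at 3.05, decay factors at 3.46, and U5 and tri-snRNP proteins at 3.53. Snrpn, the Sm protein known for its expression in neurons, was at 286 ± 24.1 TPM, above every member. Among relatives of the hnRNPs, Ssb was highest at 91.5 ± 10.2 TPM and Ptbp3, a relative of the polypyrimidine tract binding protein, lowest at 2.67 ± 0.258 TPM.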

How the data were processed

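The authors deposited TPM per transcript and library. Per the submitters' processing notes, the tools were Trimmomatic, TopHat, Bowtie and HTSeq, without versions, and the build was mm10. What was done with multiply mapped reads is not given in the sources used here. Members, lists and pairs were chosen with earlier results of these data known. Of 84660 rows, 83017 matched GENCODE M21 by identifier without version, 47 of them placed elsewhere and left out, and 1643 did not match. The 40 genes hold 241 rows, of which 219 have the same start and end in M21. Multiplying TPM by exonic length and dividing by 1 constant per library gave whole numbers, within 0.01, in 99.8% of rows above 0 with equal start and end, which gave reads per row. For rows of the 40 genes with other ends, the M21 model was clipped to the deposited ends, which gave whole reads in 14 rows. No reads were recovered for the longest coding rows of Hnrnpa2b1, Hnrnpul1, Hnrnpul2, Sf3b2 and Sf3b3, whose deposited models may differ from M21. Their TPM is as deposited. The longest coding row was picked by the full M21 length. Every member is named; other genes are the highest, the lowest and those under 1 TPM of a list, partners in the pairs and cell type markers. Of nested rows with at least 200 extra bases, those above equal density and those of Srsf genes are named, and Hnrnph1, Hnrnph2, Hnrnpd and Hnrnpl, chosen after their values were seen. Libraries differed beyond sampling noise, with chi-square per degree of freedom from 11.7 to 18.2 and 0 identical rows above 0, so all 3 were kept. Log values use log2(TPM + 1) and so compress differences at low levels. No count test was made, because a single group has no comparison. Shared sequence was sought on both strands among annotated loci of M21 only. Steps were tested on simulated data, where reads of all simulated rows were recovered. The simulated rows were made and read with the same M21 lengths, so this check cannot cover deposited models that differ from M21. Protein sequences were not analysed here. Alternatives were the highest row, the sum of rows, leaving out each library, scaling to nuclear protein-coding genes, a pseudocount of 0.1, thresholds of 0.5 and 5 TPM, filters on level and on shared words, and minimum extra lengths of 100 and 400 bases. Python 3.11.15, numpy 2.4.6 and pandas 2.3.3 were used.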

Additional observations from a re-analysis of the deposited data

How the results depend on the processing

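Counts at 1 and 10 TPM stayed within 1.5 times under every alternative, and at a threshold of 5 TPM 36 genes were called. At 100 TPM, 1 gene became 6 with the highest row, 19 with the sum of rows, which counts shared reads repeatedly, and 22 with scaling to nuclear protein-coding genes, which multiplies TPM by 4.75, 4.70 and 4.87 in libraries 1, 2 and 3. The median of log2 levels for the highest row, the sum and this scaling was 5.19, 6.41 and 6.97 for all members, 5.16, 6.70 and 7.11 for Srsf, 5.58, 7.46 and 7.17 for Hnrnp, 4.13, 5.60 and 6.07 for Sf3a, and 2.13, 3.0 and 3.86 for all protein-coding genes. For Sf3b it was 6.80 with the scaling and within its spread otherwise. A pseudocount of 0.1 gave 4.71 for all members, 3.81 for Sf3a, 4.54 for Sf3b and 1.55 for all protein-coding genes. Genes with at least 90% unshared words gave 4.94, 5.43 for Sf3b and 2.04 for all, and a minimum of 1 TPM gave 3.18 for all. Without 1 library the medians ran from 4.72 to 4.80 for all members, 4.76 to 4.97 for Srsf and 1.93 to 1.94 for all protein-coding genes. Signs of pairs turned with the highest row for Srsf3 minus Srsf7 (0.05), Srsf2 minus Srsf1 (-0.51), Hnrnpd minus Hnrnpdl (0.29), Hnrnpab minus Hnrnpd (-0.16), Hnrnpr minus Syncrip (0.51), Sf3a1 minus Sf3a3 (0.86) and Sf3a2 minus Sf3a3 (0.19). With the sum the same pairs gave 1.54, -0.54, 0.80, -1.78, 0.36, 1.04 and 0.67, and Srsf10 minus Srsf12 (1.44), Hnrnpc minus Raly (-1.01) and Hnrnpul2 minus Hnrnpul1 (-0.40) turned too. Leaving out 1 library, Sf3a1 minus Sf3a3 ran from -0.08 to 0.02, with 0.02 without library 3. The order of Sf3b4 and Sf3b5 turned with the sum, at 5.80 and 3.80 TPM. The intron background of 10.7% was 9.94% and 14.7% with at least 100 and 400 extra bases. The cause of each turn was not tested. No paired analysis was possible because there is only 1 group. With 3 libraries the sign-flip test can give no p under 0.25, so it cannot call any difference.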
